A study of Homo sapiens with 4 samples.

Results

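The glutathione S-transferase family was followed through 9 genes in human breast cancer cells of the lines MDA-MB-231 and T-47D. The genes were GSTP1, GSTK1, GSTO1, GSTM3, GSTM4, GSTZ1, MGST1, MGST2 and MGST3. The members were the probe sets whose annotation names one of these genes alone, which gave 18 of the 54675 probe sets on the array and 9 of the 19775 genes that have a probe set of their own. MDA-MB-231 is a triple negative line and T-47D an estrogen receptor-positive one. Each was cultured for 24 h either with 100 μM JPH203, an inhibitor of the amino acid transporter LAT1, or with Captisol, the cyclodextrin vehicle, also given at 100 μM. Total RNA of each of these 4 conditions was hybridized to 1 Affymetrix U133 Plus 2.0 array. Between 10831 and 11857 probe sets per array reached a signal of 100. No array was repeated, so that no value below has a replicate error or a p-value, and line, culture and array cannot be told apart.

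Glutathione transferases join the thiol of glutathione to electrophilic compounds, which are then exported from the cell and broken down to mercapturates. The cytosolic enzymes fall into classes named by Greek letters, of which GSTP1 is pi, GSTM3 and GSTM4 are mu, GSTO1 is omega and GSTZ1 is zeta. GSTK1 belongs to the kappa class of mitochondria and peroxisomes. MGST1, MGST2 and MGST3 are unrelated membrane proteins that carry out similar reactions. Several transferase genes are known targets of NRF2, a transcription factor of the oxidative stress response that binds the antioxidant response element.

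The windows around the annotated start (250 bases before to 50 after, RefSeq, GRCh38.p14) are shown for GSTP1 and GSTO1, the members with more signal in MDA-MB-231 cells, and for GSTM3, a member with more signal in T-47D cells. Capitals mark matches to TGACNNNGC, the core of the antioxidant response element, which was searched on both strands.
GSTP1, chr11:67583562-67583861, plus strand: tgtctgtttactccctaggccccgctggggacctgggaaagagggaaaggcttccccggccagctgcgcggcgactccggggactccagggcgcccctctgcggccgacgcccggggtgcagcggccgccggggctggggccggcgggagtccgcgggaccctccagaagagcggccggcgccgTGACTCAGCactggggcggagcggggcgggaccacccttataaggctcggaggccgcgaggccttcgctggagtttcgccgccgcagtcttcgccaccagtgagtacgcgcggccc
GSTO1, chr10:104254642-104254941, plus strand: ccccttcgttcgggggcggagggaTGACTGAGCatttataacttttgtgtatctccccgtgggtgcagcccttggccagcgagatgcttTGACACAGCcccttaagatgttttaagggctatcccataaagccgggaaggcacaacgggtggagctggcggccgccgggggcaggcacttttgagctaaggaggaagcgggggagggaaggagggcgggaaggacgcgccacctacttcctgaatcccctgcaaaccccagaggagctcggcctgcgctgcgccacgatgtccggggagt
GSTM3, chr1:109740989-109741288, minus strand: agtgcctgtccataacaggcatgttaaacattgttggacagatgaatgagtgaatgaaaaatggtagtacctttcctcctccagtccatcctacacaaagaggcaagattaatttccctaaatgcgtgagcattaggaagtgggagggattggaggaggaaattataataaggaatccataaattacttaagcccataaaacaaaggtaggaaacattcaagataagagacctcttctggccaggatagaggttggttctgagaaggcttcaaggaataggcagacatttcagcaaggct
The GSTP1 match, TGACTCAGC, begins 66 bases before the start and also holds TGACTCA, the site of AP-1. The GSTO1 matches begin 226 and 161 bases before the start. The GSTM3 window has no match and 1 CpG, against 36 CpGs in that of GSTP1 and a median of 14 over all 35116 promoter windows. It is not typical of the members with more signal in T-47D cells. The GSTZ1 window has 33 CpGs, that of MGST3 22, and those of MGST1 18, 19 and 4. Windows were found for 8 members, all but MGST2, 10 windows in all, of which 3 hold the motif, those of GSTP1 and GSTO1 and 1 of the windows of MGST1. Over all windows the share was 13.3%. These matches and CpG counts are letters in a window and were not tied to any measurement here.

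A signal of at least 100 was taken as the minimum at which a gene was read. With 1 level per gene, that of its brightest probe set over the 4 arrays, 8 members reached the minimum on both arrays of MDA-MB-231 cells, where 34.3% of all genes did. In T-47D cells 7 members did, against 32.4% of all genes. GSTK1, GSTO1, GSTM3, GSTZ1, MGST1, MGST2 and MGST3 were present in both lines, as were 26.6% of all genes. GSTP1 was present in MDA-MB-231 cells alone, a class that held 5.4% of all genes. GSTM4 was below the minimum on every array, as were 56.6% of all genes in both lines. No member was present in T-47D cells alone, where 4.98% of all genes were. The members were chosen with these signals known, so the shares describe them and support nothing further.

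**Figure D1:**
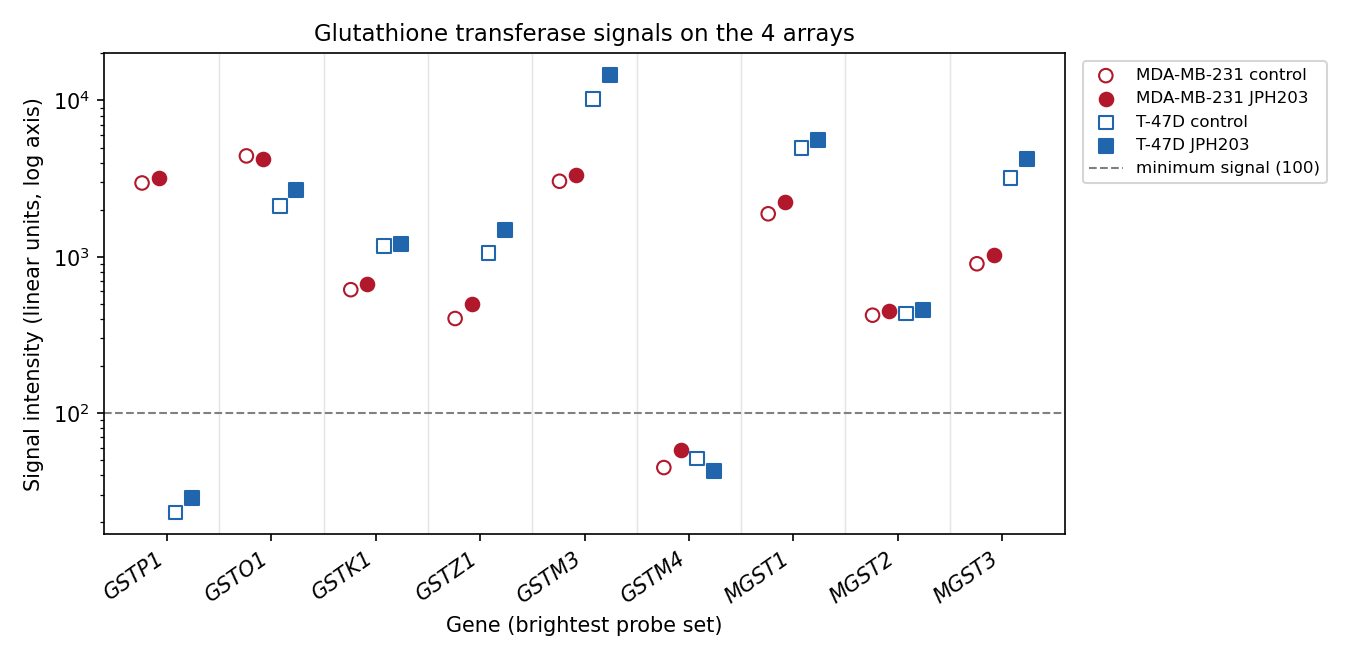
Signal intensity (y axis, linear units on a log axis) of the 9 members (x axis, brightest probe set) on the 4 arrays, with circles for MDA-MB-231 and squares for T-47D cells, open for control and filled for JPH203, 1 array behind every point. A dashed line marks the minimum of 100, with GSTP1 at 2964 and 3174 for MDA-MB-231 but at 23.1 and 28.5 for T-47D, and GSTM4 under the line throughout.

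Of the members, GSTP1 had the largest difference between the lines. Signals are given below for the control array first and the JPH203 array second. The only probe set of GSTP1, 200824_at, read 2964 and 3174 for MDA-MB-231, against 23.1 and 28.5 for T-47D. The T-47D signals were below the minimum, so the difference is given as a bound against 100, at least 29.6-fold in the control arrays and at least 31.7-fold in the JPH203 arrays. Ordered by this bounded ratio, GSTP1 was 14th from the MDA-MB-231 side among the 8294 genes that reached 100 on 1 or both control arrays. It was also 14th among the 8239 such genes in the JPH203 arrays.

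GSTO1, a thiol transferase that also reduces dehydroascorbate, was the other member with more signal in MDA-MB-231 cells. Its brighter probe set, 201470_at, read 4417 and 4235 for MDA-MB-231, against 2108 and 2659.7 for T-47D. Its other probe set, 1557915_s_at, read 3773 and 3565.5, against 1554 and 2207. On both probe sets each MDA-MB-231 array was above each T-47D array. The ratio of MDA-MB-231 to T-47D was 2.10 in the control arrays, past the 2-fold threshold, and 1.59 in the JPH203 arrays, short of it. The latter was 2.07 after median centring and 2.33 after quantile normalization.

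GSTM3 and MGST3 had the largest differences in favour of T-47D cells. GSTM3, a mu class enzyme measured by 202554_s_at, read 10242 and 14584 for T-47D, against 3040.5 and 3349 for MDA-MB-231. The T-47D signal was 3.37 times that of MDA-MB-231 in the control arrays and 4.35 times in the JPH203 arrays. Its other probe set, at 40.1 to 91.5, was below the minimum on all arrays. MGST3, a membrane transferase with peroxidase activity measured by 201403_s_at, read 3192 and 4191 for T-47D, against 901 and 1019 for MDA-MB-231. The T-47D signal was 3.54 times that of MDA-MB-231 in the control arrays and 4.11 times in the JPH203 arrays. Of its other probe sets, one reached the minimum on the T-47D control array alone, at 136, and one on no array.

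GSTZ1, the maleylacetoacetate isomerase of tyrosine breakdown, was measured by 209531_at alone and read 1059 and 1492 for T-47D, against 402 and 495 for MDA-MB-231. The T-47D signal was 2.63 times and 3.02 times that of MDA-MB-231 in the control and JPH203 arrays. MGST1, found in the endoplasmic reticulum and the outer mitochondrial membrane, read 4963 and 5625 for T-47D, against 1882 and 2255 for MDA-MB-231, on 1565162_s_at, the brightest of its 5 probe sets. The T-47D signal was 2.64 times and 2.49 times that of MDA-MB-231. Its probe set 224918_x_at read 4042 and 5097 for T-47D, against 2127 and 2343, or 1.90 times and 2.18 times. The third bright one, 231736_x_at, read 4054 and 5007 against 1929 and 2145, or 2.10 times and 2.33 times. The bright probe sets thus place MGST1 on either side of the 2-fold threshold in the control arrays, though T-47D was higher on each. The remaining pair, at 2.2 to 42.1, was below the minimum on all arrays.

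GSTK1 and MGST2 did not pass 2-fold in either pair of arrays as deposited. GSTK1 (217751_at) read 1168 and 1204.5 for T-47D, against 615 and 671 for MDA-MB-231, so that T-47D had 1.90 times and 1.80 times the signal. MGST2 (204168_at), which can make leukotriene C4, read 432 and 459 for T-47D, against 422 and 448 for MDA-MB-231. Its ratio of MDA-MB-231 to T-47D was 0.977 in the control and 0.976 in the JPH203 arrays, the values nearest to 1 among the members. GSTM4, of the mu class like GSTM3, read 44.7 and 57.7 for MDA-MB-231, against 51.2 and 42.2 for T-47D, with the other of its probe sets at 29.1 to 41.2. No ratio was read for it.

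In the control arrays, 6 of the 8 members that could be compared passed 2-fold, GSTP1 and GSTO1 in favour of MDA-MB-231 and GSTM3, GSTZ1, MGST1 and MGST3 in favour of T-47D. The background was high, with 47.8% of the 8294 genes past 2-fold, 23.5% toward MDA-MB-231 and 24.3% toward T-47D. In the JPH203 arrays 5 of 8 members passed, the same genes without GSTO1, where 53.5% of all genes did, 27.9% and 25.6% by direction. The median log2 ratio of MDA-MB-231 to T-47D was -1.16 over the members in the control arrays and 0.00 over all genes tested, and -1.08 and 0.04 in the JPH203 arrays. Among the 500 genes nearest in mean signal, the central 95% of ratios enclosed every member but GSTP1 in each pair of arrays.

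**Figure D2:**
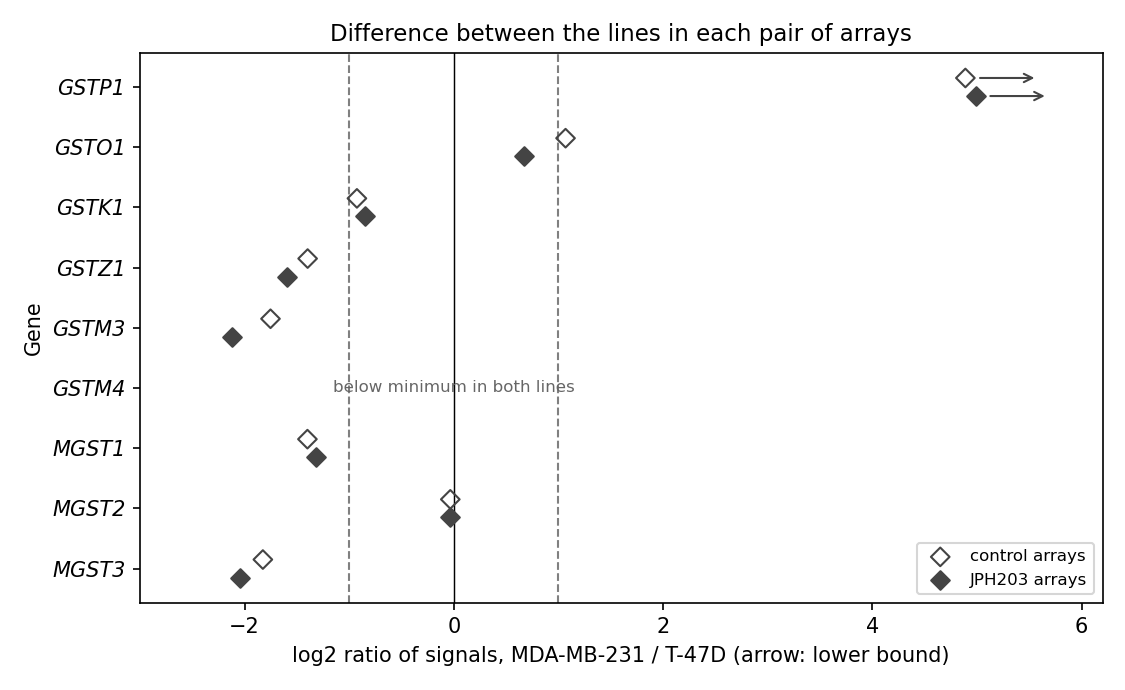
Log2 ratio of signals, MDA-MB-231 over T-47D (x axis), for each member (y axis) in the control arrays (open diamonds) and the JPH203 arrays (filled diamonds), 1 array per condition, with dashed lines at 2-fold and arrows where the value is a lower bound against 100. GSTM3, MGST3, GSTZ1 and MGST1 lie left of -1 in both pairs and GSTO1 crosses the line at 1 between them; poly-A scaling moves GSTZ1 and MGST1 right of 0 in the control pair, and all 4 in the JPH203 pair.

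These directions depend on how the lines are scaled. The poly-A spike-in transcripts of the T-47D control array had 3.22 times the signal of those of the MDA-MB-231 control array, and those of the JPH203 arrays differed 5.57-fold in the same direction. The hybridization controls differed 1.45-fold and 1.86-fold. Scaling the arrays to the poly-A transcripts multiplies all ratios of a pair by 1 factor. The ratio of MDA-MB-231 to T-47D in the control arrays was then 0.956 for GSTM3, 0.909 for MGST3, 1.22 for GSTZ1 and 1.22 for MGST1, all 4 were above 1 in the JPH203 arrays, and GSTP1 and GSTO1 stayed past 2-fold in the control arrays. For GSTK1 it was 1.69 in the control and 3.10 in the JPH203 arrays, and for MGST2 3.15 and 5.43, so that GSTK1 turned direction and MGST2 passed 2-fold toward MDA-MB-231. That scaling moved the median log2 ratio of all genes tested to 1.84, and assumes equal amounts of added transcript, which was not checked. Whether the amount of RNA per cell or the number of cells differed cannot be told apart in such samples. In the signals as deposited, the line labels were borne out by all 14 luminal markers, each at least 2-fold higher in T-47D cells in both pairs of arrays. Marker ratios under poly-A scaling are not given here. The labels were also borne out by 9 of 11 mesenchymal markers, higher in MDA-MB-231 cells, with CDH2 and SPARC below the minimum on all arrays. Of 9 markers of other cell types, 8 were below it on all arrays, and COL1A1 read 656 and 468 for T-47D.

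Over the 4 arrays, the genes most alike to each member were those with the smallest root mean square difference of log2 signal, each gene centred on its own mean and signals under 100 set to 100, among 8574 genes. For GSTP1 these were PTX3 at 0.0139, the caveolin CAV2 at 0.0381 and F3, tissue factor, at 0.0481, all below the minimum in T-47D cells. As their T-47D signals were all set to 100, this likeness rests on similar levels of signal in the MDA-MB-231 arrays. For GSTO1 the most alike genes were XRN2, GAR1 and ZPR1, at 0.0280 to 0.0313. For GSTM3 they were EAPP, WHR1 and TFDP2, at 0.0217 to 0.0342. MGST3 was the fifth gene for GSTM3, at 0.0436, and GSTM3 the fourth for MGST3, after S100A13, DTX2P1-UPK3BP1-PMS2P11 and EAPP. For GSTZ1 they were DCUN1D1, PAAF1 and C11orf54, at 0.0490 to 0.0584, and for MGST1 SMIM3, SWI5 and BPHL, at 0.0130 to 0.0322. No other member came so near, with MGST1 in place 69 for GSTZ1 and GSTZ1 in place 124 for MGST1. With 4 points per gene many genes lie close to any pattern, and these are descriptions of 2 lines and 1 drug.

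With JPH203, no member changed 2-fold in either line. In MDA-MB-231 cells the 8 members tested had ratios of JPH203 to control from 0.959 to 1.23, and 0.103% of the 6777 genes tested changed 2-fold. GSTZ1 was at 1.23, MGST1 at 1.20, MGST3 at 1.13, GSTM3 at 1.10, GSTK1 at 1.09, GSTP1 at 1.07, MGST2 at 1.06 and GSTO1 at 0.959. All lay within the central 95% of all ratios in that line, 0.778 to 1.32. Among the 500 genes nearest in mean signal, 14 had a ratio above that of MGST1 on its brightest probe set. For GSTZ1 there were 30 and for GSTM3 34. The others had more such genes above them, 48 for MGST3, 61 for GSTP1, 115 for GSTK1, 142 for MGST2 and 253 for GSTO1. The members' median log2 ratio was 0.13, against -0.01 over all genes tested. Of the 8, 7 were above 1, as were 48.3% of all genes. GSTO1 was at 1.05 with poly-A scaling, and MGST1 at 0.836 with the mean of its probe sets. That mean takes in probe sets of MGST1 below the minimum on all arrays. The other bright probe sets of MGST1, 224918_x_at and 231736_x_at, were at 1.10 and 1.11.

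In T-47D cells the 7 members tested had ratios from 1.03 to 1.42, where 4.64% of the 6416 genes tested changed 2-fold. GSTM3 was at 1.42, GSTZ1 at 1.41, MGST3 at 1.31, GSTO1 at 1.26, MGST1 at 1.13, MGST2 at 1.06 and GSTK1 at 1.03. All lay within the central 95% of ratios there, 0.503 to 1.97, a wider range than in MDA-MB-231 cells. Of the 500 genes nearest each member in mean signal, from 104 (GSTZ1) to 327 (MGST1) had a higher ratio. The members' median log2 ratio was 0.34, against -0.02 over all genes tested. All 7 were above 1, as were 48.3% of all genes. GSTK1 was below 1 after median centring and quantile normalization, MGST2 after median centring and MGST1 after quantile normalization. GSTM3 and MGST3 were below 1 with the mean of their probe sets. That mean takes in probe sets below the minimum on the T-47D JPH203 array. All 7 were below 1 when scaled to the poly-A transcripts. Those transcripts had 1.57 times the control signal on the T-47D JPH203 array, and ACTB, whose 3′ over 5′ signal rises as RNA is degraded, had a ratio of 1.72 there against 1.39 in the control, while that of GAPDH was 0.867 against 0.940. Their part in the ratios was not tested.

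**Figure D3:**
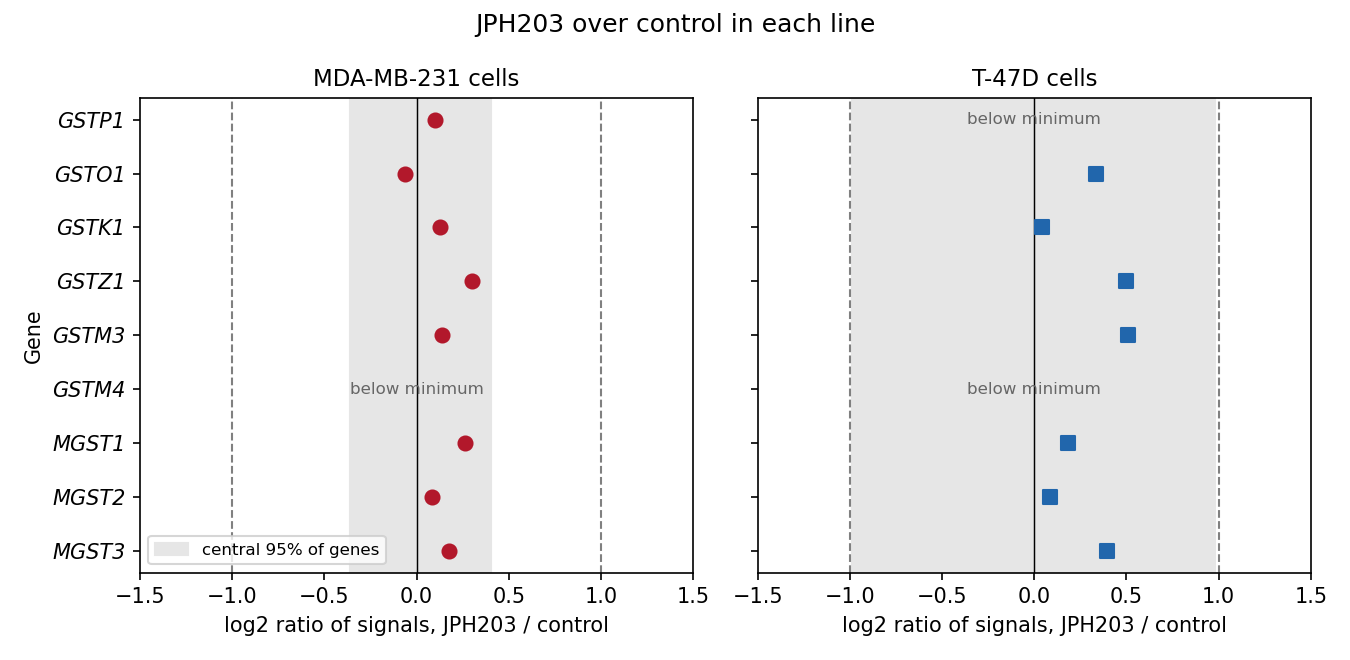
Log2 ratio of signals, JPH203 over control (x axis), for each member (y axis) with MDA-MB-231 on the left (red circles) and T-47D on the right (blue squares), 1 array per condition. Grey bands span the central 95% of all genes tested and dashed lines mark 2-fold; every member measured lies within its band, between ratios of 0.959 and 1.23 on the left and between 1.03 and 1.42 on the right, the latter all below 1 once scaled to the poly-A transcripts.

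The difference between the lines in the response to JPH203 lay well within the range of other genes. For the 7 members present on all arrays, the log2 ratio in T-47D minus that in MDA-MB-231 cells ran from -0.08 for GSTK1 to 0.40 for GSTO1, with GSTM3 at 0.37 and MGST2 at 0.00. The central 95% of the 5265 genes present on all arrays ran from -1.10 to 1.07. With 1 array per condition this difference could not be tested.

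Of 17 other transferase and related membrane protein genes, 14 had a probe set of their own and 7 of these reached the minimum on 1 array or more. In the control arrays 2 of 7 passed 2-fold toward MDA-MB-231 and 4 toward T-47D, beside 23.5% and 24.3% of all genes. With JPH203 none of the 3 tested in MDA-MB-231 or the 4 tested in T-47D cells changed 2-fold, beside 0.103% and 4.64% of all genes. GSTO2, the neighbour of GSTO1 on chromosome 10, read 1307 and 1888.5 for T-47D, against 25.2 and 29.7 for MDA-MB-231. It was thus at least 13.1-fold and at least 18.9-fold higher in T-47D cells, opposite in direction to GSTO1. GSTM4, GSTM2, GSTM1, GSTM5 and GSTM3 follow each other on chromosome 1. GSTM2 read 205 and 137 for T-47D and was below the minimum in MDA-MB-231 cells, GSTM1 reached the minimum on the T-47D control array alone, at 110.5, and GSTM5 on none. GSTA4, which acts on lipid aldehydes, read 343 and 294 for MDA-MB-231, against 66.1 and 82.7 for T-47D. The brightest probe sets of GSTM1, GSTM2 and GSTM4 end in _x_at, which marks probes that may bind other transcripts, so these mu class genes may not be fully separated. Those of GSTM3, MGST1 and MGST3 end in _s_at, which marks probes shared by several transcripts.

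**Figure D4:**
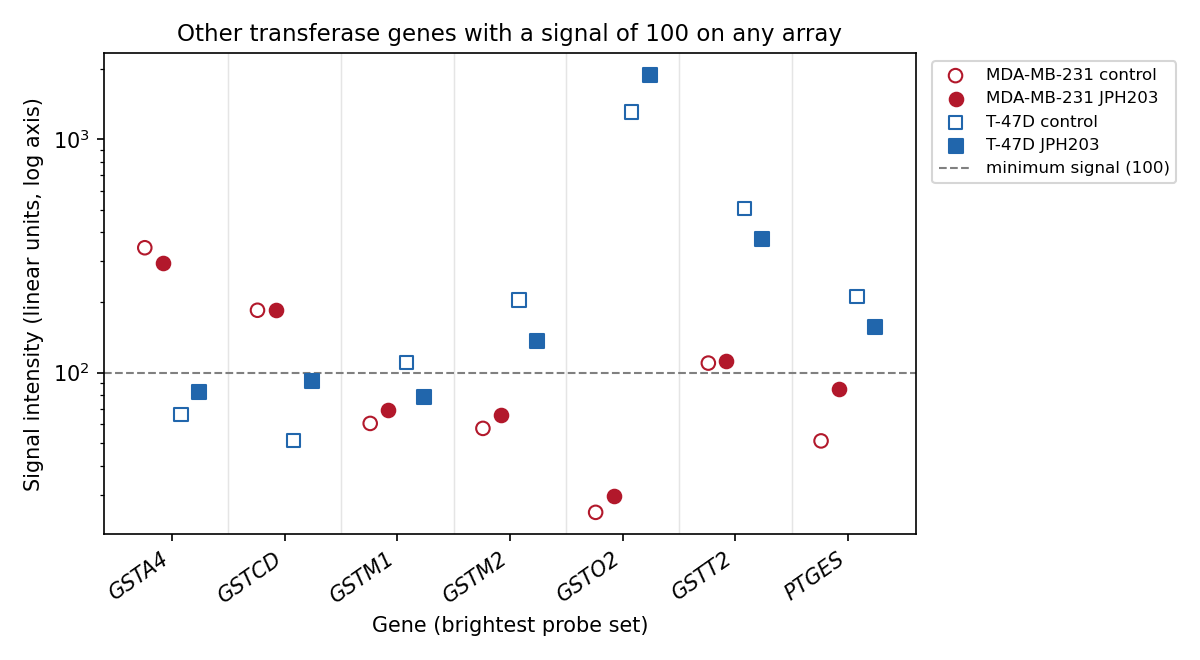
Signal intensity (y axis, linear units on a log axis) of the 7 other transferase and related genes that reached the dashed minimum of 100 on any array (x axis, brightest probe set). Circles stand for MDA-MB-231 and squares for T-47D, open for control and filled for JPH203, 1 array behind every point, and GSTO2 is at 1307 and 1888.5 for T-47D and below the minimum for MDA-MB-231, while GSTA4 and GSTCD are above it for MDA-MB-231 alone.

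Genes upstream and downstream of conjugation were counted from lists made with earlier results of these data known. CTH, in the supply list, is a gene the paper had reported as raised in MDA-MB-231 cells on these arrays. The counts therefore describe the lists and support nothing further. Of 8 genes of glutathione supply measured in the control arrays, 3 passed 2-fold toward MDA-MB-231 and none toward T-47D, beside the same shares of all genes. These were SLC7A11, the cystine transporter, at least 6.15-fold, GCLM, the modifier subunit of glutamate-cysteine ligase, 7.39-fold, and CHAC2, which breaks glutathione down, 5.41-fold. With JPH203, CTH was the only gene called of the 8 tested in MDA-MB-231, where it was higher, beside 0.103% of all genes. None of the 5 tested in T-47D was called, beside 4.64% of all genes. CTH was not among those 5, as it read 136.6 and 95.5 there, the latter below the minimum. Of 14 genes of conjugate export and mercapturate processing with a probe set, 10 were below the minimum in both lines, as were 56.6% of all genes. ABCC4, an export pump, read 232 and 186 for MDA-MB-231, against 10.0 and 0.9 for T-47D. ABCC5, another pump, read 448 and 292 for T-47D, against 102 and 100.3 for MDA-MB-231. CNDP2, a dipeptidase, read 2500.5 and 1894 for T-47D, against 1014 and 1026.5 for MDA-MB-231. With JPH203, ABCC1, the main pump for glutathione conjugates, fell from 282 to 140.4 in T-47D cells, a ratio of 0.498 at the threshold, and read 333 and 322 for MDA-MB-231. The genes of that list tested with JPH203 numbered 4 for MDA-MB-231 and 3 for T-47D, and no other tested gene changed 2-fold. Of all genes, 0.103% and 4.64% did in these lines.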

How the data were processed

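Signals of 4 Affymetrix U133 Plus 2.0 arrays, 1 per condition, were analysed. The authors deposited 1 linear signal intensity for each probe set, made with GCOS according to the submitters' processing notes. Its version is not given in the sources used here. The 2% trimmed mean of every array was close to 100, as global scaling gives. Members and gene lists were chosen with earlier results of these data known. The platform annotation gives 1 gene for 41097 probe sets, and 1801 with several genes were left out. The level of a gene was that of its brightest probe set. A JPH203 ratio was called from 2 upward or from 0.5 downward if the control and JPH203 signals both reached 100. A line ratio was called likewise if either signal did. All members were named in the text, with values for at most 4 genes of each other pathway list. The alternatives were other scalings, minimum signals, thresholds, a pseudocount of 16 and other choices of probe set. Signals below 0.1 were set to 0.1 before log2. The calling code was run on simulated data, with changes put into bright probe sets under small added noise. Such a run checks the code and not the error of the arrays. Protein sequences were not used here. The number of arrays limits the precision. Python 3.11.15, numpy 2.4.6, pandas 2.3.3 and matplotlib 3.10.9 were used.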

Additional observations from a re-analysis of the deposited data

Results flagged for a closer look

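GSTO1 is listed because its ratio of JPH203 to control lay on opposite sides of 1 in the lines, at 0.959 for MDA-MB-231 and 1.26 for T-47D on the brighter probe set. The other probe set had 0.945 and 1.42. Neither ratio passed 2-fold, the difference was not tested, and with poly-A scaling the values were 1.05 and 0.802.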

How the results depend on the processing

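In the 11 alternatives run, 0 members were called with JPH203 in either line, at 1.5-fold too. Of the 328 single ratios set against the main ones, 302 kept their call and 20 did not. The other 6 were called line differences that changed direction, all 6 when the arrays were scaled to their poly-A spike-ins. Another 21 ratios that were short of 2-fold crossed 1. Of these, 12 did so under that scaling, 4 under median centring, 2 under quantile normalization and 3 with the mean of probe sets. Other minimum signals change neither the ratio nor the call of a gene still compared, and other thresholds do not change a ratio. Part of the 302 was thus fixed in advance. With poly-A scaling the ratio of MDA-MB-231 to T-47D became 1.22 for GSTZ1 and 1.22 for MGST1 in the control arrays, and 1.28 for GSTM3, 1.85 for GSTZ1, 2.23 for MGST1 and 1.35 for MGST3 in the JPH203 arrays. The count of members past 2-fold in the control arrays, 6, was 3 under that scaling (3 toward MDA-MB-231 and 0 toward T-47D), 3 at a 3-fold threshold and 3 without _x_at and _s_at probe sets. In the JPH203 arrays, 5 (1 toward MDA-MB-231 and 4 toward T-47D) became 6 with poly-A scaling, all 6 toward MDA-MB-231, 3 with the mean of probe sets and 2 without _x_at and _s_at probe sets. Leaving those out drops GSTM4 and the bright probe sets of GSTM3, MGST1 and MGST3, and then 5 members were present for MDA-MB-231 and 4 for T-47D. Over all genes in the control arrays, 1945 were higher for MDA-MB-231 and 2018 for T-47D. Median centring gave 2471 and 1626, with the median log2 ratio at 0.27, and poly-A scaling 6744 and 450. In the JPH203 arrays, 2298 and 2112 became 3058 and 1399, and 8101 and 217. With JPH203 in T-47D cells, 143 higher and 155 lower genes became 71 and 281, and 15 and 798. Other counts of all genes, higher then lower, that moved over 1.5 times in total or in a direction follow. Without a minimum signal they were 4352 and 5954 in the control arrays, 4473 and 6433 in the JPH203 arrays, and with JPH203 2446 and 2287 for MDA-MB-231 and 3165 and 2467 for T-47D. At 3-fold they were 1169 and 1226, 1474 and 1246, 1 and 0, and 22 and 4 in that order. With the mean of probe sets the line counts were 1204 and 1334, and 1324 and 1454, and the responses 5 and 3 for MDA-MB-231 and 99 and 57 for T-47D. At 1.5-fold the responses were 38 and 21, and 744 and 875, and at a minimum of 200, 4 and 0, and 113 and 82. The MDA-MB-231 response, 6 and 1, was 10 and 4 at a minimum of 50, 3 and 0 without _x_at and _s_at probe sets, 6 and 0 with the pseudocount, and 17 and 2 with poly-A scaling. The T-47D response was 187 and 259 at a minimum of 50, and 98 and 103 without _x_at and _s_at probe sets. No paired analysis was possible because each group has 1 array, and no array could be left out.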

Other observations

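Among 27 other detoxification enzymes with a probe set of their own, 10 were present in both lines, 4 in MDA-MB-231 alone and 4 in T-47D alone. Of all genes, 26.6%, 5.4% and 4.98% fell in these classes. Another 8 of the 27 were below the minimum in both lines, beside 56.6% of all genes. The last 1, CYP1A1, reached it on the JPH203 array but not on the control array of each line. AKR1C3, a ketosteroid reductase, read 681 (control) and 740.5 (JPH203) for MDA-MB-231, against 10.3 and 6.6 for T-47D. SULT1A1, a phenol sulfotransferase, read 809 and 907 for T-47D, against 34.5 and 31.6 for MDA-MB-231. In the control arrays 7 of 18 such genes tested passed 2-fold toward MDA-MB-231 and 6 toward T-47D, beside the 23.5% and 24.3% of all genes given above.

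With JPH203, CYP1B1 rose 2.55-fold in MDA-MB-231 cells, from 1192.5 to 3046, and no other gene of the 14 tested in each line was called. Of all genes tested, 0.103% (MDA-MB-231) and 4.64% (T-47D) changed at least 2-fold. Like CTH, CYP1B1 had been reported by the paper as raised on these same MDA-MB-231 arrays, so its rise is not a separate result. CYP1A1, like CYP1B1 a target of the aryl hydrocarbon receptor, was chosen after its values were seen and read 69.7 (control) and 215 (JPH203) for MDA-MB-231, against 26.8 and 259 for T-47D. Its control signals were below the minimum, so no ratio was called.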
